A study of Bos taurus with 16 samples.

Results

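BDNF, VGF, EGR3, HOMER1 and ADCYAP1 are neuronal genes whose transcription is known to follow electrical activity or whose products are secreted signalling peptides, and they were followed here in the prefrontal cortex (PFC) of cattle. These 5 genes, of 27607 annotated genes and 1163 that carry a symbol, were chosen by their position in the study's own list of genes that differ between the breeds and by their lower level in Lidia animals in these same samples. Their difference between the breeds is therefore described and not tested.

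The study sequenced PFC RNA from 8 Lidia and 8 Wagyu non-castrated bulls, 1 library per animal, to compare a breed selected for aggressive behaviour with a docile one. All bulls were 3 years old except Lidia Agg_8174, which was 4, animals being named by the numbers in their labels. The Lidia bulls came as 4 animals from La Quinta and 4 from Montealto, were provoked before the bullfight and were sampled at the bullring. They were kept on pasture until the last months of life and then given concentrates. The Wagyu bulls came from a single farm, were raised for meat and were sampled at a slaughterhouse. They grazed when young and then had a diet rich in concentrates. Breed, farm, rearing, place of sampling and the events before death cannot be told apart in this design.

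When a neuron fires, calcium entering through synaptic receptors and channels switches on immediate-early genes, many of which encode transcription factors, and these act with CREB on later effector genes. The effectors change synapses, and some are packed into dense-core vesicles and released as neuropeptides or growth factors. In the cortex such transcripts are widely used as markers of recent neuronal activity. EGR3 is a zinc finger transcription factor of the immediate-early class. BDNF is a neurotrophin that acts through the receptor TrkB, VGF is a granin-like prohormone cleaved into neuropeptides and induced by neurotrophins, HOMER1 is a postsynaptic scaffold that binds metabotropic glutamate receptors, and ADCYAP1 encodes the neuropeptide PACAP.

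On the ARS-UCD 1.2 assembly, BDNF (ENSBTAG00000008134) lies on the minus strand of chromosome 15 from 58385523 to 58422131 and has 1 annotated transcript with 2 exons. VGF (ENSBTAG00000009868) is on the plus strand of chromosome 25 from 35574908 to 35576764, as 1 transcript with a single exon of 1857 bases. EGR3 (ENSBTAG00000019293) is on the minus strand of chromosome 8 from 69996238 to 70000191, with 2 transcripts. HOMER1 (ENSBTAG00000025853), on the minus strand of chromosome 10 from 10413731 to 10546778, has 3 transcripts. ADCYAP1 (ENSBTAG00000020650) is on the plus strand of chromosome 24 from 35733350 to 35739930 and has 1 transcript with 5 exons. For each of the 5 loci, 0 other annotated genes overlapped it.

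Levels are given as FPKM, a fragment number per kilobase of exon and per fixed number of mapped fragments, summed over a gene's transcripts and rescaled between animals by median of ratios. The fragments behind them numbered 13.7 M to 34.8 M in Lidia and 7.67 M to 37.0 M in Wagyu (M, 10 to the power 6). The deposited FPKM of Wagyu 5 and Lidia Agg_8324 were inflated 2.19-fold and 1.77-fold relative to the geometric mean of the 16 animals. The other 14 animals had factors of 0.612 to 1.12. The rescaling removes these differences in scale. Over 16587 tested genes, 826 (4.98%) were called different between the breeds by limma, which fits a linear model with a shared variance trend, with limits of 0.05 on the adjusted p and 0.1 on the log2 difference, of which 552 (3.33%) were higher and 274 (1.65%) lower in Lidia. On the FPKM as deposited 0 genes were called, with 1022 at an unadjusted p under 0.05. Lidia Agg_8165 stood apart from the other Lidia bulls in several cell-type marker sums given below.

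All 5 genes were detected in all 16 animals and passed the filter on low values. HOMER1 had the highest mean level, 16.5 FPKM over all animals, and lay above 87.4% of the tested genes, followed by VGF at 9.42 FPKM and EGR3 at 5.12 FPKM. ADCYAP1 followed at 4.36 FPKM, and BDNF was the least abundant at 2.26 FPKM, above 45.4% of the tested genes. BDNF was the lowest of the 5 in 16 of 16 animals, and VGF exceeded both EGR3 and ADCYAP1 in 16 of 16. The neighbours in this order were less clear elsewhere, since HOMER1 exceeded VGF in 14 of 16 animals and EGR3 exceeded ADCYAP1 in 11 of 16. The animals with more VGF than HOMER1 were Lidia Agg_8165 and Wagyu 1.

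EGR3, the transcription factor of the group, ranged from 2.41 to 6.40 FPKM in Lidia with a median of 3.01. In Wagyu it ranged from 4.06 to 9.23 FPKM with a median of 6.90. The highest Lidia values, in Lidia Agg_8174 and Lidia Agg_8162, reached into the Wagyu range, and the other 6 Lidia bulls lay below all Wagyu animals. The means were 3.53 ± 1.36 FPKM and 6.72 ± 1.55 FPKM (SD, n = 8 each), a log2 difference of -0.95 with a standard error of 0.20.

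BDNF had the largest log2 difference of the 5. It lay between 0.940 and 1.79 FPKM in Lidia, with a median of 1.13, and between 1.77 and 4.20 FPKM in Wagyu, with a median of 3.37. Only Lidia Agg_8174 and Wagyu 3 met, at 1.79 and 1.77 FPKM, and 7 of 8 Lidia bulls were below every Wagyu animal. The mean was 1.21 ± 0.282 FPKM in Lidia and 3.32 ± 0.779 FPKM in Wagyu, so that the Lidia mean was 36.5% of the Wagyu mean and the log2 difference was -1.37 (standard error 0.16).

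VGF was the most variable of the 5 in Lidia. Its values there ran from 3.63 to 14.6 FPKM around a median of 5.47, with a coefficient of variation of 53.5% against 19.8% in Wagyu. The Wagyu values ran from 7.45 to 15.8 FPKM around a median of 12.5. Lidia Agg_8174 was at 14.6 FPKM, above most Wagyu animals, and Lidia Agg_8324 was at 9.17 FPKM, while the other 6 Lidia bulls were below all Wagyu. Only 1 of 8 Wagyu animals lay above all Lidia bulls. The log2 difference was -0.93 (standard error 0.24), from means of 6.79 ± 3.63 and 12.05 ± 2.39 FPKM.

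HOMER1 had the smallest log2 difference, -0.81 with a standard error of 0.21. It ranged from 6.88 to 15.2 FPKM in Lidia, with a median of 12.5, and from 12.01 to 30.9 FPKM in Wagyu, with a median of 22.3. Here 4 of 8 Lidia bulls lay below all Wagyu, the lowest number of the 5 genes, and Wagyu 1, Wagyu 3 and Wagyu 4 were within or near the Lidia range at 12.01, 13.6 and 15.3 FPKM. The means were 11.7 ± 2.80 and 21.2 ± 7.17 FPKM.

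ADCYAP1, the source of PACAP, ranged from 1.91 to 4.24 FPKM in Lidia with a median of 2.61. In Wagyu the range was 3.64 to 9.83 FPKM with a median of 6.02. Lidia Agg_8312, the highest Lidia bull, overlapped Wagyu 3 and Wagyu 7, and the other 7 Lidia bulls lay below all Wagyu animals. The mean was 2.80 ± 0.803 FPKM in Lidia against 5.93 ± 2.08 FPKM in Wagyu, and the log2 difference was -1.03 (standard error 0.21).

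**Figure D1:**
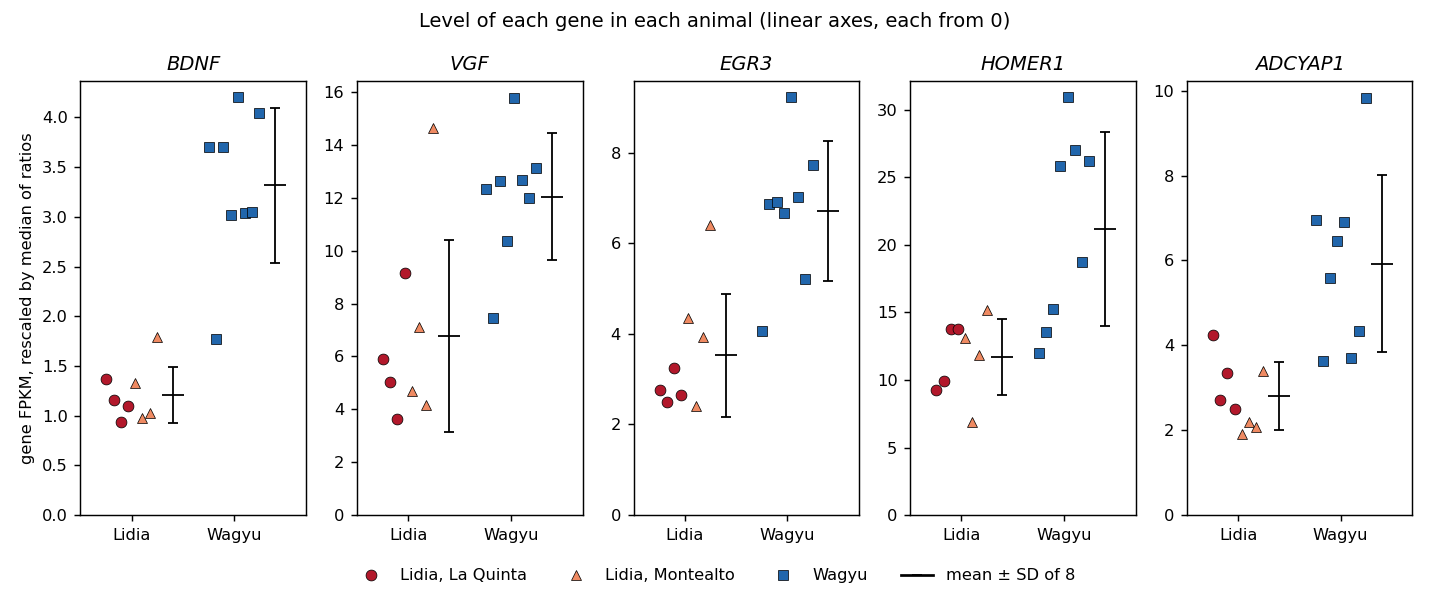
Rescaled FPKM of the 5 genes in each of the 16 animals, on linear axes that start at 0, with Lidia bulls split by farm and the mean ± SD of the 8 animals of a breed beside the points. For BDNF, 7 of 8 Lidia bulls sit below every Wagyu animal, and for HOMER1 4 of 8 do.

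Lidia Agg_8174, the 4-year-old, was the highest Lidia bull for 4 of the 5 genes (BDNF, VGF, EGR3 and HOMER1), and Wagyu 6 was the highest Wagyu animal for the same 4. Wagyu 3 was the lowest Wagyu animal for 3 genes, BDNF, VGF and ADCYAP1, and Wagyu 1 for EGR3 and HOMER1. The low Lidia values were spread over Lidia Agg_8320, Lidia Agg_8165 and Lidia Agg_8162. Age and farm of Lidia Agg_8174 cannot be told apart from the animal itself. Without Lidia Agg_8174 the log2 differences were -1.45 for BDNF, -1.11 for VGF, -1.08 for EGR3, -0.87 for HOMER1 and -1.07 for ADCYAP1.

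Of the 5 genes, 5 were called lower in Lidia on the rescaled values, beside 1.65% of all tested genes, and for 0 of 5 did all Lidia values lie below all Wagyu values, beside 0.32% of tested genes. Nothing can be read from these counts, because the same contrast chose the genes. On the FPKM as deposited 0 of 5 were called, with log2 differences from -1.41 for BDNF to -0.85 for HOMER1 and standard errors of 0.27 to 0.35. Without Wagyu 5 and Lidia Agg_8324, 1 of 5 was called and the log2 differences lay between -1.37 and -0.80. When a single animal was left out in turn, 3 to 5 of the 5 were called. Against the 8 Wagyu, the La Quinta bulls alone, with 3 of 5 called, gave log2 differences of -1.43 for BDNF, -1.06 for VGF, -1.21 for EGR3, -0.80 for HOMER1 and -0.82 for ADCYAP1. The Montealto bulls alone, with 1 of 5 called, gave -1.30 for BDNF, -0.80 for VGF, -0.68 for EGR3, -0.83 for HOMER1 and -1.24 for ADCYAP1. Each gene was thus lower in both farms than in Wagyu, by amounts that differed most between the farms for EGR3 and ADCYAP1.

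**Figure D2:**
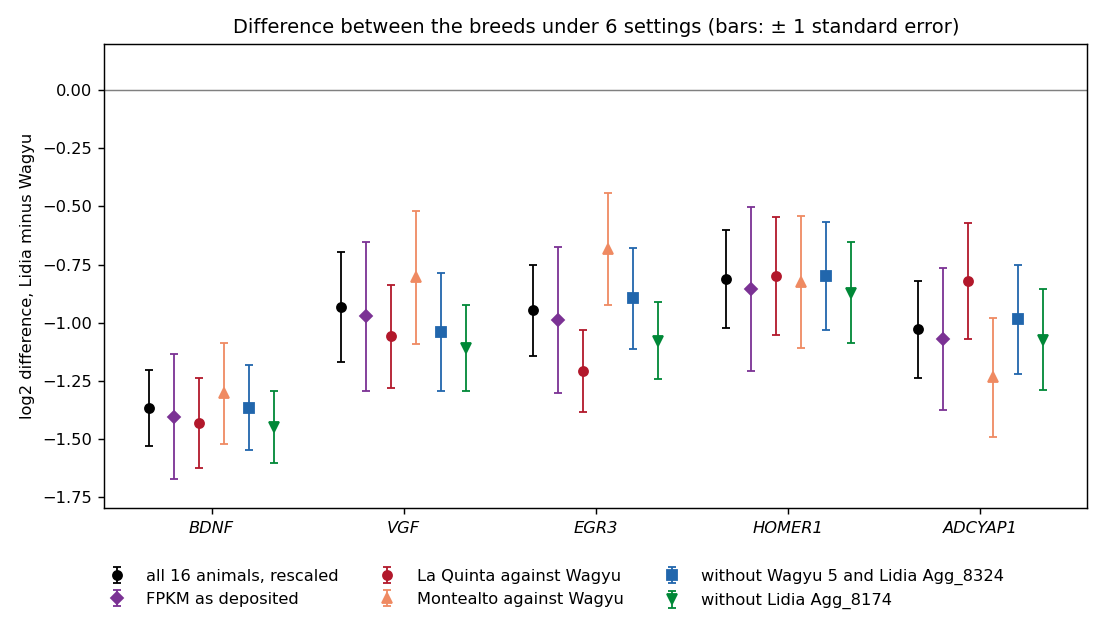
Log2 difference of each gene, Lidia minus Wagyu, with bars of 1 standard error, for all 16 animals rescaled, for the FPKM as deposited, for each Lidia farm against the 8 Wagyu, and with named animals left out. All points shown lie below 0, from -1.45 to -0.68.

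The farms themselves could be compared with a test, since that contrast had no part in choosing the genes. Between La Quinta and Montealto, 7 of 16585 tested genes (0.0422%) were called, with an unadjusted p under 0.05 for 679, and 0 of the 5 genes were called. EGR3 had means of 2.79 ± 0.329 FPKM at La Quinta and 4.27 ± 1.64 FPKM at Montealto (SD, n = 4 each), a log2 difference of -0.53 (standard error 0.26, limma adjusted p = 0.948, unadjusted p = 0.0784). ADCYAP1 went the other way, with 3.20 ± 0.781 and 2.39 ± 0.676 FPKM and a log2 difference of 0.41 (standard error 0.22, limma adjusted p = 0.948, unadjusted p = 0.101). BDNF, VGF and HOMER1 differed by -0.13, -0.25 and 0.03 on the log2 scale, each less than its standard error of 0.21, 0.42 and 0.26. With 4 bulls per farm the standard errors leave farm differences of the size seen for EGR3 and ADCYAP1 unresolved.

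Correlation between the genes was then measured across the 8 animals of a breed, on log2(FPKM + 0.1), so that the difference between the breeds did not enter. All 20 correlations, 10 gene pairs in each breed, were positive, from 0.01 to 0.94 with medians of 0.35 in Lidia and 0.45 in Wagyu. The median r of each gene with all tested genes lay between -0.06 and 0.04. The share of tested genes with a higher r ran from 0.049% (with VGF, for BDNF and VGF in Wagyu) to 51.7% (with EGR3, for EGR3 and ADCYAP1 in Lidia). A positive r was thus ordinary for part of the pairs. Exact two-sided permutation tests over all pairings with Benjamini-Hochberg adjustment over the 20 placed 1 of them at an adjusted p of at most 0.05. The genes share their libraries, so the 20 values are not independent. When the 2 animals farthest from the median of the first gene were left out, 6 of the 20 were negative, 4 in Lidia and 2 in Wagyu. The lowest was VGF with HOMER1 in Lidia, at r = 0.16 over the 8 bulls (exact permutation p = 0.700, adjusted p = 0.867) and -0.94 (exact permutation p = 0.00833, unadjusted) without Lidia Agg_8324 and Lidia Agg_8174. The positive sign thus did not hold in all pairs without these animals. Leaving out the extremes of a gene narrows its range and lowers r by itself, so dependence on odd animals cannot be read from this.

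The correlation that passed was BDNF with VGF in Wagyu, at Pearson r = 0.94 (exact permutation p = 0.00112, adjusted p = 0.0223). Spearman's rho was 0.83 (exact permutation p = 0.0154, adjusted p = 0.184). Without Wagyu 6 and Wagyu 3, the highest and lowest for BDNF, r was 0.62 (exact permutation p = 0.146). The narrower range lowers r by itself, so dependence on these animals cannot be read from this fall. In Lidia the same genes gave r = 0.65 (exact permutation p = 0.0835, adjusted p = 0.278), rho = 0.52 (exact permutation p = 0.197, adjusted p = 0.492), and r = 0.05 (exact permutation p = 0.919) without Lidia Agg_8312 and Lidia Agg_8174.

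EGR3 and HOMER1 gave r = 0.71 in Wagyu (exact permutation p = 0.0391, adjusted p = 0.253), with rho = 0.79 (exact permutation p = 0.0279, adjusted p = 0.184). Without Wagyu 6 and Wagyu 1 r was 0.25 (exact permutation p = 0.711). In Lidia r was 0.68 (exact permutation p = 0.0633, adjusted p = 0.253), rho was 0.69 (exact permutation p = 0.0694, adjusted p = 0.231), and r was 0.55 (exact permutation p = 0.272) without Lidia Agg_8162 and Lidia Agg_8174. A farm holds too few bulls for a correlation of its own. After each farm's mean was subtracted the Lidia value was 0.86 (permutation over all Lidia bulls, adjusted p = 0.0352). Values centred by farm are not exchangeable between farms, so p-values after this subtraction are not exact and decide nothing. BDNF and ADCYAP1, both secreted products, gave r = 0.75 in Wagyu (exact permutation p = 0.0197, adjusted p = 0.197), rho = 0.79 (exact permutation p = 0.0279, adjusted p = 0.184), and r = 0.77 (exact permutation p = 0.0722) without Wagyu 6 and Wagyu 3. Their Lidia value was r = 0.37 (exact permutation p = 0.376, adjusted p = 0.677), rho = 0.36 (exact permutation p = 0.389, adjusted p = 0.708), and -0.52 (exact permutation p = 0.307) without Lidia Agg_8312 and Lidia Agg_8174. After subtraction of farm means this Lidia value was 0.64 (permutation over all Lidia bulls, adjusted p = 0.274). EGR3 and ADCYAP1 had r = 0.01 in Lidia and 0.12 in Wagyu, and 0.52 in Lidia (permutation over all Lidia bulls, adjusted p = 0.415) after subtraction of farm means.

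**Figure D3:**
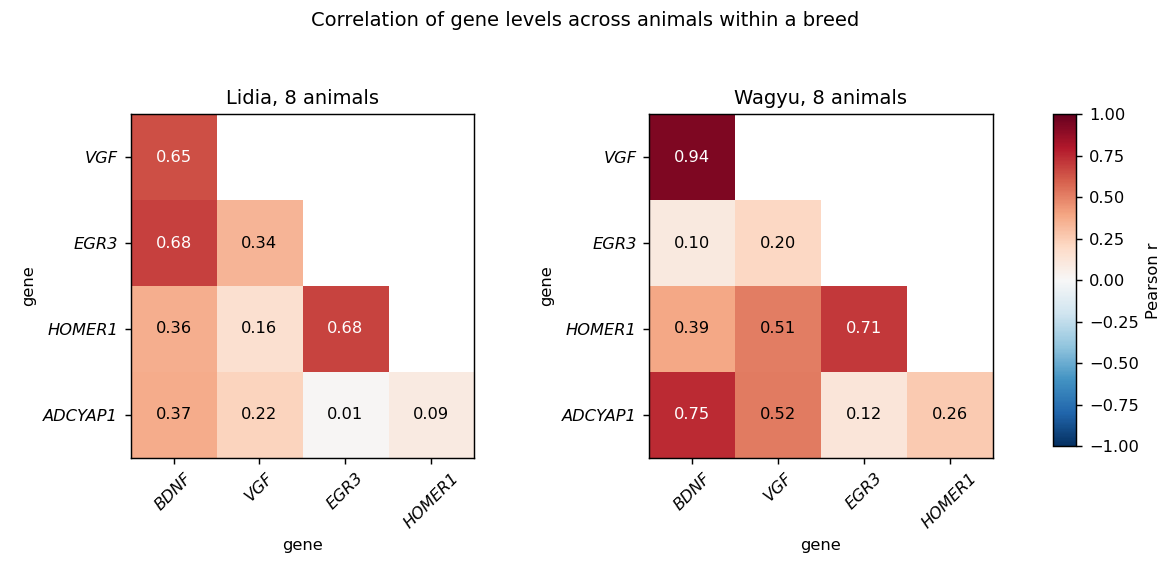
Pearson r of each gene pair across the 8 Lidia and the 8 Wagyu animals, on log2(FPKM + 0.1), with colour from -1 to 1. All 20 values are positive, and BDNF with VGF in Wagyu, at 0.94, is the highest.

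With each breed's mean subtracted, the genes most like each of the 5 over the 16 animals were listed from the 1159 tested genes that carry a symbol, as a description. For BDNF they included PVR, ARHGAP25, MLLT11 and SLC17A7, the vesicular glutamate transporter of excitatory neurons, with r from 0.78 to 0.76. For VGF they were the chaperone gene DNAJB5, PTPRN, a dense-core vesicle protein, NPTX2, an activity-induced synaptic pentraxin, PVR and ATP6V0C, a proton pump subunit listed jointly with another gene, with r from 0.81 to 0.73. Of the 5 genes themselves, the closest to VGF was BDNF, at r = 0.67 and place 41 among 16586 other tested genes. The closest of the 5 was at place 111 for BDNF (VGF), 130 for EGR3 (HOMER1), 317 for ADCYAP1 (BDNF) and 1399 for HOMER1 (EGR3). The farthest was ADCYAP1 for EGR3, at r = 0.06 and place 7813.

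For EGR3 the list began with KLHL25 and the immediate-early genes EGR2 and NR4A3. EGR2 and NR4A3 were low, averaging 0.318 and 0.185 FPKM in Lidia and 0.859 and 0.362 FPKM in Wagyu. GAD2, which makes the transmitter GABA, and a gene known only as ENSBTAG00000050311 followed, with r from 0.74 to 0.67 in this list. HOMER1 had the highest values, with CLIP1, a microtubule end protein, at r = 0.90 as its first of all 16586 genes, then GRAMD1B, DCLK1, HECTD2 and NUDT21 down to 0.81. High r was common for HOMER1, where NUDT21 at 0.81 held place 68. For VGF, DNAJB5 at 0.81 held place 2. ADCYAP1 was closest to NEUROD6, a transcription factor of excitatory cortical neurons, at r = 0.86, and then to NOCT, LDHA, SLC17A7 and TUBB2A, down to 0.75. None of the 5 genes appeared among the leading 5 of another. SLC17A7 was shared by BDNF and ADCYAP1, and PVR by BDNF and VGF.

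Transcript estimates were available for EGR3 and HOMER1. The 2-exon EGR3 transcript of 2482 bases carried 96.6% ± 2.75 of the gene's FPKM in Lidia and 94.0% ± 3.22 in Wagyu (SD, n = 8 each). The 3-exon transcript of 1515 bases made up the rest, at most 11.1% in any animal, and its Cufflinks interval reached 0 in 5 of 8 Lidia and 0 of 8 Wagyu bulls. The lower limit was only just above 0 in Wagyu 9, Wagyu 1 and Wagyu 4, at 0.0026, 0.0087 and 0.0090 FPKM as deposited. A breed difference in transcript use was not tested. By itself the 2-exon transcript was at 3.39 ± 1.23 FPKM in Lidia and 6.31 ± 1.45 FPKM in Wagyu.

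For HOMER1 the longest transcript, of 3072 bases, carried 80.0% ± 10.5 in Lidia and 82.0% ± 10.7 in Wagyu, a difference smaller than the spread between animals. The shorter 9-exon transcript of 1050 bases ranged up to 30.0% in Lidia and 33.4% in Wagyu, and its interval reached 0 in Lidia Agg_8165 and Wagyu 1. Those are the animals with more VGF than HOMER1. The 8-exon transcript had an interval that reached 0 in 6 of 8 Lidia and 8 of 8 Wagyu bulls. The last exon of all 3 begins at 10415536 on chromosome 10, read on the minus strand, and runs for 1806 bases in the longest transcript and for 189 bases in the other 2, so a short, activity-induced HOMER1 form that stops upstream of this exon was not measured as a transcript of its own. The longest and the shorter 9-exon transcript were both lower in Lidia, at 9.15 ± 1.41 against 16.9 ± 5.01 FPKM and at 2.44 ± 1.57 against 4.25 ± 3.10 FPKM.

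**Figure D4:**
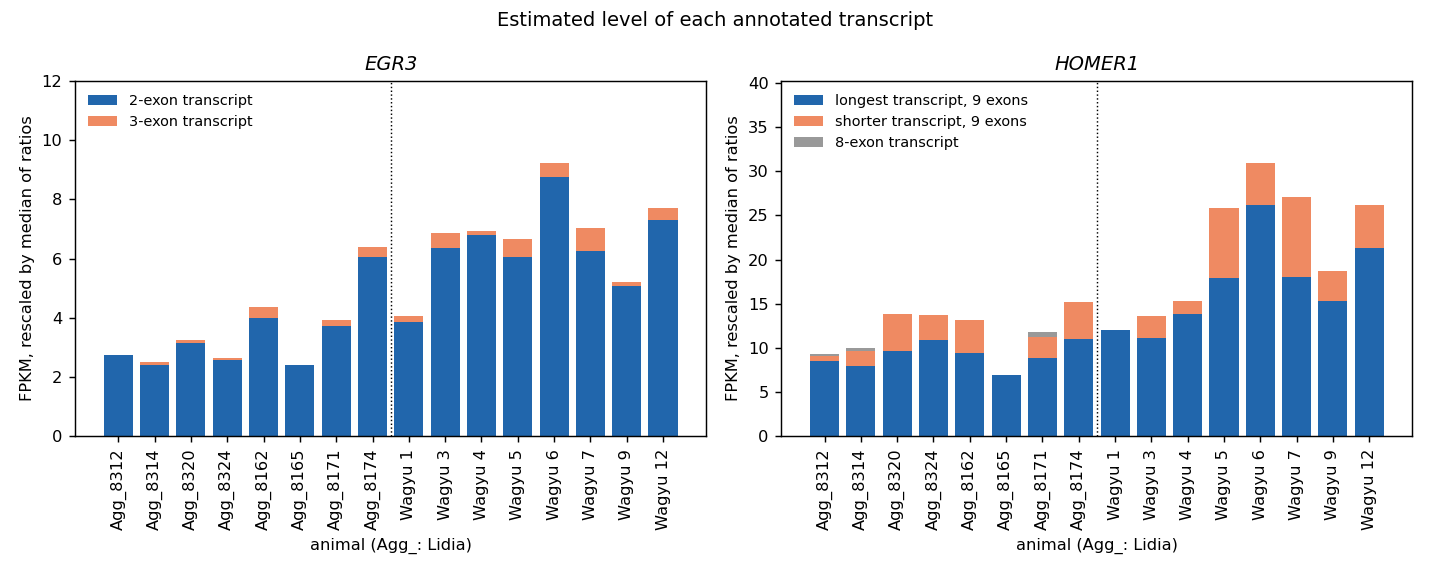
Rescaled FPKM of each annotated EGR3 and HOMER1 transcript, stacked per animal, with Lidia left and Wagyu right of the dotted line. The 2-exon EGR3 transcript dominates in every animal, and the shorter 9-exon HOMER1 transcript is near 0 in Lidia Agg_8165 and Wagyu 1.

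Genes of these pathways were taken from 5 lists with 100 different symbols, of which 47 could be named. The 5 genes followed here are among these 47. In these lists EGR3 is an immediate-early factor, BDNF, VGF and HOMER1 are effectors, and ADCYAP1 and VGF are neuropeptides. The counts called lower below thus include them. A name exists only for genes that the study selected on this contrast, so the counts, 34 with a negative and 13 with a positive log2 difference, are no independent evidence of direction. The median log2 difference over all tested genes was -0.01, with 1.65% called lower and 3.33% called higher.

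Of the immediate-early transcription factors, 9 of 20 were named, with 2 called lower and 1 called higher in Lidia and a median log2 difference of -0.53. EGR2, a close relative of EGR3, had the largest difference, -1.35 (standard error 0.44), and was not called, at 0.318 ± 0.393 against 0.859 ± 0.637 FPKM. KLF2, prominent in endothelium, was called higher at 0.87 (standard error 0.22), and KLF4 was at 0.79 (standard error 0.25) without being called. The called genes of this list thus lay on both sides of 0.

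Of the activity-induced effectors, 21 of 32 were named, with 10 called lower, 2 called higher and a median of -0.61. Besides BDNF and VGF, the leading genes were NPTX2, which gathers glutamate receptors at synapses, called lower at -0.96 (standard error 0.19), and DUSP1, a phosphatase of MAP kinases induced by stress as well as activity, called higher at 0.92 (standard error 0.22). NPTX2 had 3.65 ± 1.49 FPKM in Lidia and 7.05 ± 1.87 in Wagyu, and DUSP1 had 15.7 ± 4.72 and 8.34 ± 2.82.

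Of the neuropeptides and granins, 13 of 27 were named, with 7 called lower, 0 called higher and a median of -0.93, and 12 of the 13 had a negative log2 difference. CORT, the cortistatin of inhibitory neurons, was called lower at -1.16 (standard error 0.25), and EDN1, endothelin, at -1.13 (standard error 0.23). NPPC and GRP, at -1.25 and -1.09, were not called, with standard errors of 0.41 and 0.36. Their levels were low, averaging 0.478 and 0.302 FPKM in Lidia and 1.36 and 0.665 FPKM in Wagyu.

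Among the prohormone-processing genes 4 of 7 were named, with a median log2 difference of -0.57. Of these 1 was called lower, ECEL1, an endopeptidase, at -0.95 (standard error 0.16). Its mean level was low, 0.223 FPKM in Lidia and 0.522 FPKM in Wagyu. PCSK1 and PCSK2, the convertases that cut prohormones in dense-core vesicles, were at -0.69 and -0.46 with standard errors of 0.27 and 0.18. PCSK1N, an inhibitor of PCSK1, was at 0.39 (standard error 0.25). None of these 3 was called. Of the receptors and partners, 3 of 17 were named, with a median of 0.56, and 0 were called. NGFR, the p75 neurotrophin receptor, was at 1.09 (standard error 0.33) and HOMER3, a paralogue of HOMER1, at 0.56 (standard error 0.16). CREB5, whose locus overlaps 1 other gene, was at 0.51 (standard error 0.20). NGFR and CREB5 levels were low, averaging 0.733 and 0.419 FPKM in Lidia and 0.260 and 0.265 FPKM in Wagyu.

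**Figure D5:**
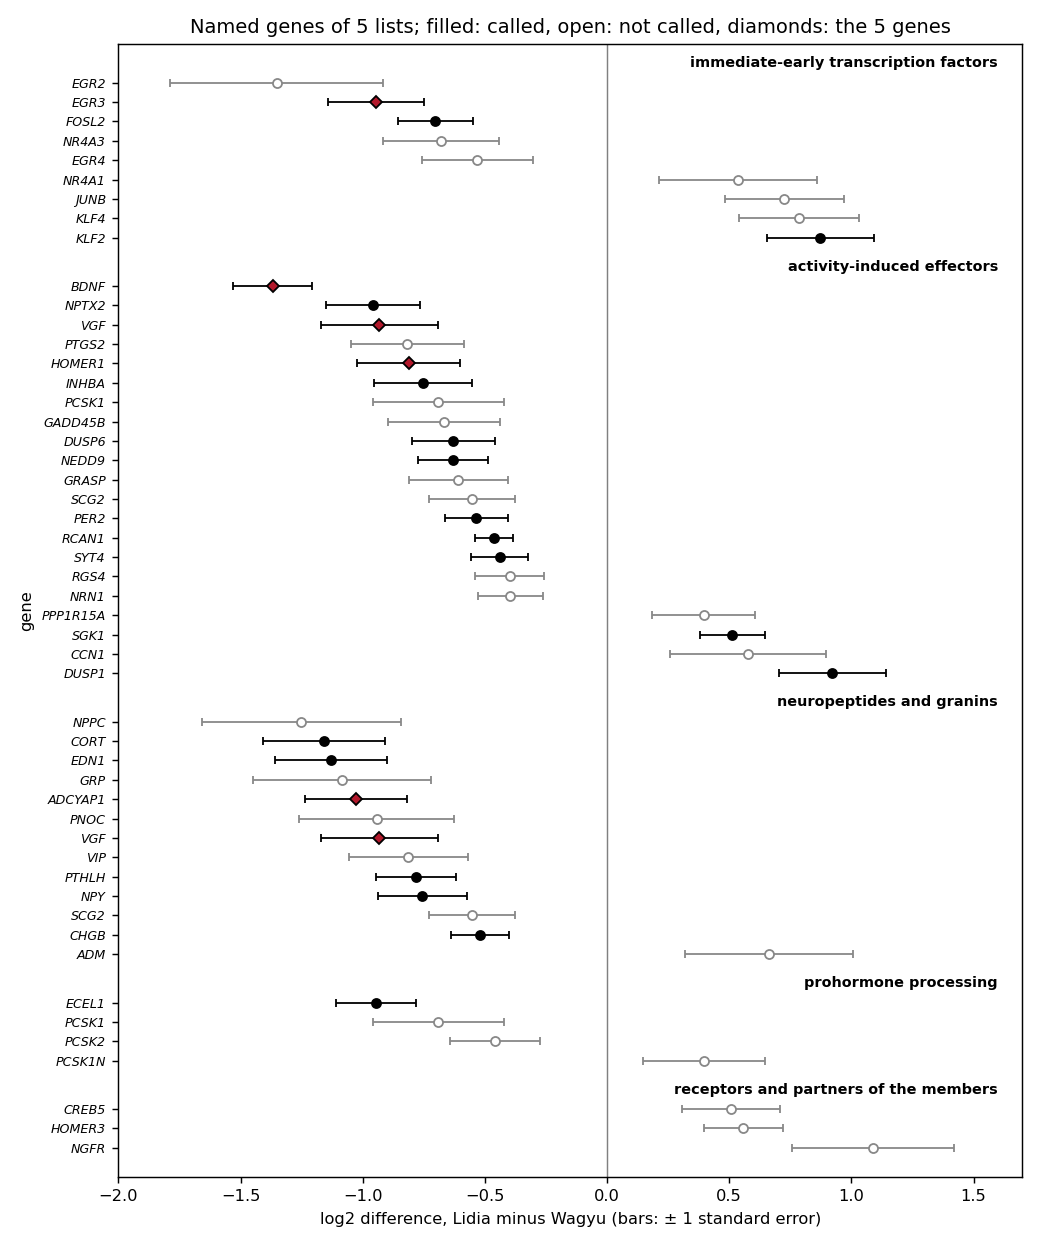
Log2 difference, Lidia minus Wagyu, with bars of 1 standard error, for the named genes of the 5 lists, filled where called, open where not, with the 5 genes as red diamonds. Of the neuropeptides and granins 7 are called lower and 0 higher, while the immediate-early factors lie on both sides of 0.

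Cell-type markers moved between the breeds together with these genes. The summed level of 5 named of 10 neuronal markers, SLC17A7 and TUBB3 among them, was 326 to 493 FPKM in Lidia and 405 to 650 FPKM in Wagyu, a log2 difference of -0.39. For inhibitory neurons, 5 of 9 named markers summed to 52.9 to 140 FPKM in Lidia and 110 to 142 FPKM in Wagyu, a log2 difference of -0.84, and Lidia Agg_8165 held the highest Lidia value. Of these 5, VIP, NPY and CORT also belong to the neuropeptide list, and NPY and CORT made up most of the sum, with means of 44.6 and 18.7 FPKM in Lidia and 71.7 and 37.1 FPKM in Wagyu. GAD2, the GABA-synthesizing enzyme among them, had a log2 difference of -0.53. Of the 5 neuronal markers, SYT4 and NRN1 also belong to the effector list. In the opposite direction, 8 of 11 oligodendrocyte markers differed by 0.51 (119 to 378 against 85.5 to 258 FPKM) and 5 of 7 astrocyte markers by 0.58 (338 to 512 against 204 to 520 FPKM).

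Markers of meningeal fibroblasts, 8 of 9 named, differed most, by 1.81 (12.9 to 76.4 against 5.48 to 25.0 FPKM), endothelial markers, 6 of 6, by 0.93 (32.6 to 116 against 16.9 to 38.6 FPKM) and microglial markers, 3 of 5, by 0.74 (14.3 to 27.3 against 6.95 to 15.6 FPKM). The red blood cell marker HBB, 1 of 2, was at 0.336 to 4.97 FPKM in Lidia and up to 1.86 FPKM in Wagyu, where Wagyu 1 was listed at 0, and this was the only named marker at 0 in any animal. Lidia Agg_8165 had the highest oligodendrocyte, astrocyte, endothelial and microglial sums of its breed. These markers too carry names only because the study selected them on this contrast. The neuronal sum differed by less on the log2 scale than any of the 5 genes, the inhibitory sum by more than HOMER1 and less than the other 4, and the part of cell composition in their difference was not tested. In bulk tissue, fewer cells of a type and less RNA per cell cannot be told apart.

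Without Lidia Agg_8165 the log2 differences were -1.33 for BDNF, -0.96 for VGF, -0.88 for EGR3, -0.71 for HOMER1 and -0.99 for ADCYAP1. Cufflinks reports a 95% interval for each estimate, which covers estimation error within a library only. Its half-width was 12.02% to 41.9% of the level for BDNF, widest in Lidia Agg_8165, and at most 18.05% for the main transcripts of the other 4 genes.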

How the data were processed

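Libraries were made with a stranded mRNA kit and sequenced as paired-end reads of 100 bases. The authors trimmed reads with PRINSEQ, mapped them with STAR 2.7.3a to ARS-UCD 1.2 with the Ensembl annotation, sorted them with SAMtools 0.1.18 and estimated transcripts with Cufflinks 2.2.1. The deposited values are FPKM per transcript with 95% limits and read coverage, listed as attributes of each of 43984 transcripts per animal. Neither read counts nor a scaling from animal to animal come with them, so the smallest level a library could resolve is unknown. Fragments per library were read from coverage divided by FPKM at 200 bases per fragment.

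FPKM was summed per gene and divided by median-of-ratios factors over the 16 animals. The test, on log2(FPKM + 0.1) and for genes averaging 0.1 FPKM or more, was that of limma 3.58.1 under R 4.3.3 (variance trend, two-sided, Benjamini-Hochberg), without covariates because farm is nested in breed, and fold changes of low genes are understated on that scale. The same fit compared the 2 Lidia farms, taken from the study's sample table and called batches there. The code was tested on simulated data. Correlations used exact permutation in Python 3.11.15 (pandas 2.3.3, numpy 2.4.6).

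Symbols came from the study's list of differing genes, of which 1163 of 1197 entries were paired by chromosome, start and end with 1 gene. The authors' fold changes and p-values in that list were not used. The genes and the lists were chosen with earlier results of these data known. Values are given for the 5 genes, for up to 4 genes of each list with the largest absolute log2 difference, and for the 5 named genes most correlated with each, of which 1 is not reported here. Alternatives were the FPKM as deposited, upper-quartile rescaling, pseudocounts of 1 and 0.01, a mean of at least 1 FPKM, no filter, no variance trend, each farm alone, leaving out each animal or both inflated ones, Spearman's rho, subtraction of farm means and other ways to compute transcript shares. Nucleotide sequences were not used here.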

Additional observations from a re-analysis of the deposited data

Results flagged for a closer look

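Among the 20 combinations of 5 genes with 4 groups of animals (each breed and each Lidia farm), 1 lowest or highest animal stood far from the rest relative to the range of its group on the log2 scale. This was BDNF in Wagyu 3, at 1.77 FPKM, where the other 7 Wagyu bulls began at 3.02 FPKM, and the gap took 61.5% of the group's range. The limit for such a group, a gap of 0.526 of the range, is passed by chance in about 1 of 20 groups. The groups here share animals and are not independent. Wagyu 3 also had the lowest neuronal marker sum of its breed, 405 FPKM, and the highest astrocyte and meningeal sums, 520 and 25.0 FPKM, and their part in its BDNF level was not tested. Without Wagyu 3 the log2 difference of BDNF between the breeds was -1.49.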

How the results depend on the processing

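The log2 differences of VGF, EGR3, HOMER1 and ADCYAP1 between the breeds kept their direction and moved by less than the spread between animals under all 26 alternatives. BDNF did so under 25, and with a pseudocount of 1 its difference was -0.95. The number of genes called between the breeds, 826 in the report, was 0 as deposited, 206 without Wagyu 5 and Lidia Agg_8324, 282 for La Quinta alone, 59 for Montealto alone and between 363 (without Wagyu 12) and 1426 (without Wagyu 3) when 1 animal was left out. Between the farms, 7 genes were called in the report and 3 both with a pseudocount of 1 and with a mean of at least 1 FPKM.

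The farm differences of BDNF and VGF turned to 0.20 and 0.10 on the FPKM as deposited, a scale that shifts the median of all genes between the farms by 0.32. Leaving out 1 Lidia bull gave -0.24 to 0.035 for BDNF and -0.49 to 0.12 for VGF, both positive only without Lidia Agg_8174, and -0.21 to 0.17 for HOMER1, negative without Lidia Agg_8320, Lidia Agg_8324 or Lidia Agg_8165 (-0.06, -0.06 and -0.21). EGR3 and ADCYAP1 kept their farm direction under all 15 alternatives.

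Gene pairs with an adjusted p of at most 0.05 numbered 0 in Lidia and 1 in Wagyu in the report, against 4 and 7 as deposited, a scale that keeps the inflation of Wagyu 5 and Lidia Agg_8324. In Wagyu the number was 0 without Wagyu 5, where BDNF with VGF had r = 0.95 and an adjusted exact permutation p of 0.0794, and 0 by Spearman's rho, with 4 at an unadjusted p of at most 0.05. In Lidia it was 1 after farm means were subtracted, by p-values that are not exact because values centred by farm are not exchangeable between farms. The Lidia correlation of EGR3 with ADCYAP1 was -0.021 without Lidia Agg_8324, and that of VGF with EGR3 was -0.12 by rho. No paired analysis was possible because the breeds share no replicate numbers. The intervals of the 3-exon EGR3 and 8-exon HOMER1 transcripts reach 0 in several animals, at depths of up to 33.6 M fragments for EGR3, so their low levels were not resolved there. Without the 2 animals farthest from the median of a pair's first gene, 6 of 20 correlations were negative, as given in the report. The cause of these changes was not tested.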
